A study of Mus musculus with 6 samples.

Results

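The nuclear genes of respiratory complexes II, III, IV and V and of cytochrome c were examined in FAPs, the fibro-adipogenic progenitors of skeletal muscle, which are stromal cells of the space between fibres. They were taken by name from the expression table: symbols that start with Sdh, Uqcr or Atp5, or with Cox and a digit, together with Cyc1 and Cycs. Genes encoded by mitochondrial DNA and 2 pseudogenes were left out. This gave 59 of 16671 genes: 8 of complex II, 8 of complex III, 25 of complex IV, 17 of complex V and the cytochrome c gene Cycs.

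The FAPs came from hind limb muscles of mice aged 4 to 5 months with the genotype wild type. They received vehicle (control) or 100 µg/ml of C1q, the molecule that begins the classical complement cascade. Each group held 3 libraries, each made from 10 ng of total RNA. The labels give neither the strain, the time of exposure nor whether replicates came from separate mice, so p-values cover only the variation among these libraries, which may be technical, and the extraction text speaks of muscle stem cells although the cell type label says FAPs. The comparison asks how the mRNA levels of the respiratory chain differ between FAPs with and without C1q.

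The respiratory chain sits in the inner mitochondrial membrane. Complex II passes electrons from succinate to ubiquinone, complex III passes them on to cytochrome c, and complex IV passes them to oxygen. Complex III and complex IV pump protons, and complex V, the ATP synthase, lets the protons back and makes ATP. Complex II is encoded in the nucleus alone, whereas complexes III, IV and V also contain subunits encoded by mitochondrial DNA.

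Promoters of 5 genes are shown because these genes cover the range of the results described below: Sdha did not pass the test while its partner subunit gene Sdhb fell, Cycs had the largest fall, and Atp5g1 and Atp5g2 encode the same mature protein but fell to different extents. The 5 were chosen after their values were seen. Each window runs from 250 bases before to 50 bases after a start annotated by RefSeq (GRCm38.p6), 5′ to 3′ on the gene's strand. The start used for Atp5g1 lies inside the annotated gene, whose 5′ end is at base 96075694. For the other genes shown, the start used is the 5′ end of the annotated gene. Capitals mark matches, on either strand, to 4 strings of letters: the consensus of NRF1 with 1 free base, CCGGAAG (GABP), AAGATGGC (YY1) and TGACGTCA (CREB). No marked matches overlap.
Sdha (chr13:74350191-74350490, minus strand): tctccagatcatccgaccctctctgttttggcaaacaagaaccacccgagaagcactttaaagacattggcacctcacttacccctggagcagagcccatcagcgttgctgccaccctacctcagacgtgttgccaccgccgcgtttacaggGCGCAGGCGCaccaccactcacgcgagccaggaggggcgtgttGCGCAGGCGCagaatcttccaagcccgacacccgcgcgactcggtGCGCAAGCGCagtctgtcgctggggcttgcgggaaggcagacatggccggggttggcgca
Sdhb (chr4:140961021-140961320, plus strand): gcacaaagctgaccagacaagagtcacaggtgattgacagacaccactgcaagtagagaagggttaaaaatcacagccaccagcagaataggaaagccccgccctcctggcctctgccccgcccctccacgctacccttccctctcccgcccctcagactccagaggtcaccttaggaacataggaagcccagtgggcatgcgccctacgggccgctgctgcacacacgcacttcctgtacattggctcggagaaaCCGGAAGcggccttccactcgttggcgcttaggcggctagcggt
Cycs (chr6:50566520-50566819, minus strand): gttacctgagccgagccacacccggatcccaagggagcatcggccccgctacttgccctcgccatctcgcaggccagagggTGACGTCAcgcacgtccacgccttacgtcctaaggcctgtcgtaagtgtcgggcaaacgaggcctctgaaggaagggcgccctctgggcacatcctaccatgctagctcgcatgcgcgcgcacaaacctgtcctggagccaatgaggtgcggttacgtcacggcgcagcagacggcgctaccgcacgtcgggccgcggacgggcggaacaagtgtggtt
Atp5g1 (chr11:96075582-96075881, minus strand): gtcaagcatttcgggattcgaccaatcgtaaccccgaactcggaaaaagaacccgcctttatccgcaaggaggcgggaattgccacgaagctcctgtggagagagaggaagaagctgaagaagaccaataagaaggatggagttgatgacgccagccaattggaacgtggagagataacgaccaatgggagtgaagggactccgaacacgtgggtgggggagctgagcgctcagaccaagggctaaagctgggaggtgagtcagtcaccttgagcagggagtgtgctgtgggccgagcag
Atp5g2 (chr15:102670998-102671297, minus strand): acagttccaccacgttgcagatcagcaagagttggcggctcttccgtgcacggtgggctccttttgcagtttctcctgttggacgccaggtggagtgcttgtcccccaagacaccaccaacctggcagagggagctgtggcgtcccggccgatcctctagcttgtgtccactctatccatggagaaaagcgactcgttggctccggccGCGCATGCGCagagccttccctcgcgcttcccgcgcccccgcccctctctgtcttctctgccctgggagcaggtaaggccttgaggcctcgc

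The Sdha window holds 3 matches to the NRF1 string, which begin 98, 55 and 10 bases before the start. The match of Atp5g2 begins 42 bases before it, the CREB match of Cycs 169 bases before it, and the GABP match of Sdhb 6 bases after it. The Atp5g1 window, placed on a start inside the gene, holds none of the 4. GCATGCGC, a string also searched for NRF1 but not among the 4, is in the windows of Sdhb, Cycs and Atp5g2. It is not in those of Sdha and Atp5g1. A window was given for 46 of the 59 genes. The NRF1 string is in 12 of them (26.1%, against 10.1% of tested genes with a window and 5.19% of all windowed genes), and the GABP string in 20 (43.5%, against 17.5% and 9.93%). The YY1 string is in 5 (10.9%, against 4.56% and 3.19%) and the CREB string in 2 (4.35%, against 3.33% and 2.03%).

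Among genes called lower with C1q the NRF1 string is in 8 of 35 windows and among those not called in 4 of 11, and the GABP string is in 16 of 35 and 4 of 11. The split depends on the string. The NRF1 consensus with no free base is in 4 of 35 and 0 of 11, and GCATGCGC, also searched for NRF1, in 7 of 35 and 0 of 11. The 4 strings marked in capitals were picked out of 13 after the counts had been seen. The other 9 were the NRF1 consensus with no free base (4 of the 46 genes, and 2.05% of tested genes), GCATGCGC (7 and 5.35%), CCGGAAGT (7 and 7.89%), ATGGCGGC (3 and 4.87%), a longer form of AAGATGGC (1 and 1.52%), CCAAT (23 and 42.3%), TATAAA (5 and 9.70%), GGGCGG (23 and 65.0%) and CACGTG (4 and 11.1%). Some of the 13 are parts of one another, such as CCGGAAG within CCGGAAGT. The share was higher in the respiratory genes than in tested genes for 11 of the 13, the exceptions being GGGCGG and CACGTG. A match is a description of letters and not a measured binding site.

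Values are normalised read counts, that is, read counts divided by 1 factor per library. Depth differed most in control 3, which held 5379209 reads on the genes of the table against 24046020 to 38861152 in the other libraries. One read there is worth 4.25 units of the normalised read count, against 0.583 to 0.975 elsewhere. Control 3 was also the lowest control for 51 of the 59 genes. The defining FAP genes were present in all 6 libraries. Pdgfra, the growth factor receptor that marks FAPs, stood at 18502, 15908 and 24176 in control 1, 2 and 3 and 34035, 31449.8 and 33086 in C1q 1, 2 and 3. Of 8 FAP and fibroblast markers 5 were higher with C1q and 1 was lower, beside 19.7% and 18.7% of all genes. With the trend on the longest transcript removed, as described below, 4 were higher and 1 lower, beside 16.6% and 16.8%. Summed values of 9 muscle fibre markers were 75034, 42624 and 19470 in control 1, 2 and 3 and 12463, 19620 and 16147 in C1q 1, 2 and 3, and those of 6 satellite cell and myoblast markers 18707, 10419 and 5463 against 3821, 5105 and 4717. Muscle-lineage RNA was thus highest in control 1, and in control 3 it was near the C1q libraries. In bulk RNA, fewer cells of a type and less RNA per cell cannot be told apart.

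Expression of the respiratory chain genes was broadly lower in FAPs given C1q. Of the 59 genes, 46 fell, 0 rose and 13 did not pass the test (limma-trend on log2(value + 1), Benjamini-Hochberg adjusted p below 0.05 over all genes). Over all genes tested, 18.7% were called lower and 19.7% higher. The median log2 fold change, C1q minus control, was -0.77 for the 59 genes and 0.03 for all 16671. The largest falls were in Cycs, Uqcrq, Atp5g1 and Atp5md, at log2 changes of -1.27, -1.23, -1.15 and -1.13. At an unadjusted p below 0.05, limma-trend gave 48 lower and 1 higher. Every control lay above every C1q library for 48 of the 59 genes, against 25.4% of all genes, and the reverse held for 0, against 26.8%.

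The 13 genes that did not pass were Sdha, Sdhd, Sdhaf3 and Sdhaf4 of complex II and Cox4i2, Cox6a2, Cox6b2, Cox7a1, Cox7a2, Cox8b, Cox11, Cox15 and Cox20 of complex IV. With edgeR's quasi-likelihood test on recovered reads, 50 of the 59 were lower and 0 higher, against 25.1% and 23.4% of the genes it tested, and these included all 46. The 4 that edgeR added were Cox6a2, Cox7a1, Cox8b and Cox20.

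**Figure D1:**
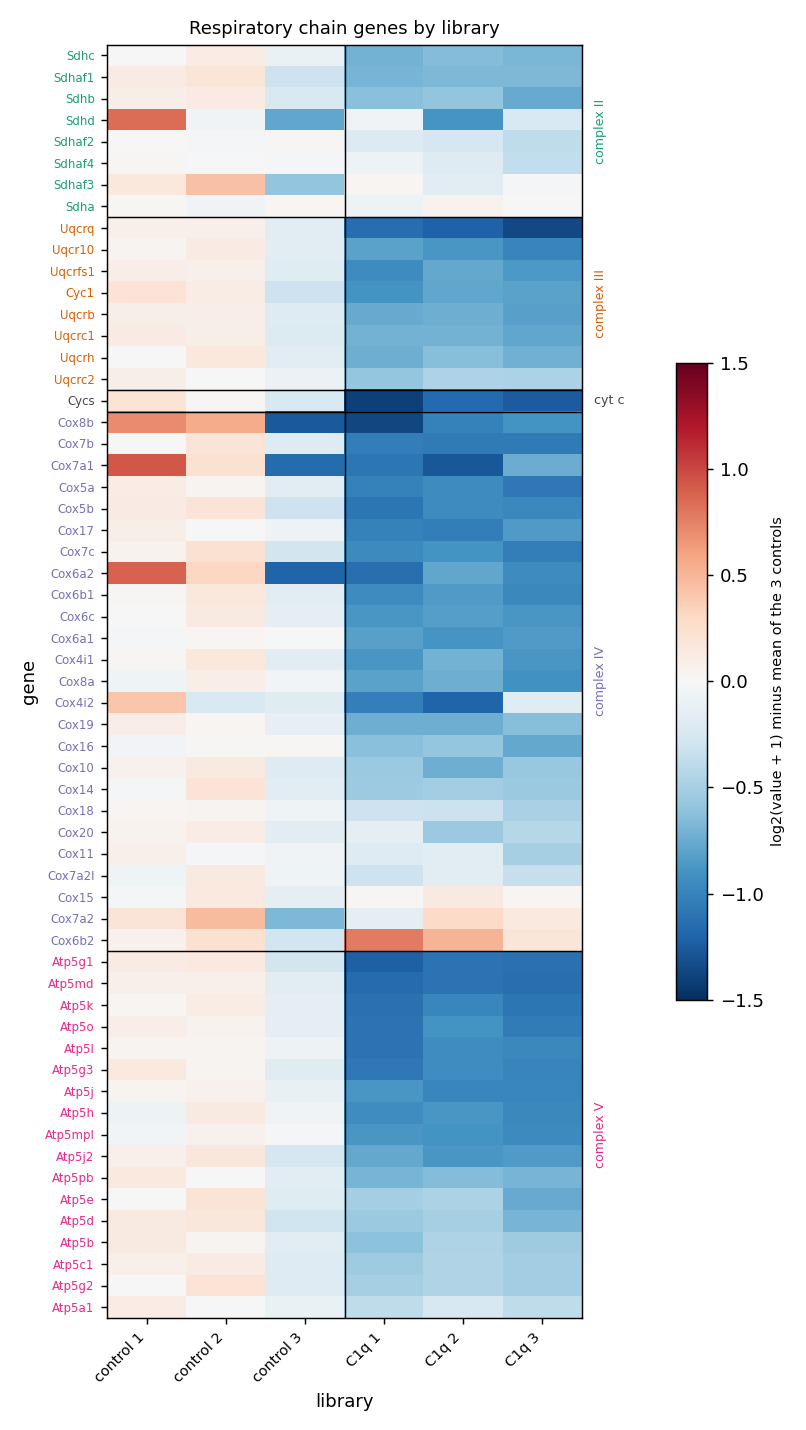
Colour gives log2(value + 1) of each gene in each library minus the mean of the 3 controls, with genes (rows) ordered by complex and then by fold change, and libraries in columns. The C1q columns are blue for most rows, Cox6b2 is red in all 3, and the muscle isoforms Cox6a2, Cox7a1 and Cox8b are as low in control 3 as in the C1q libraries.

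By complex, 4 of 8 genes of complex II fell, 8 of 8 of complex III, 16 of 25 of complex IV and 17 of 17 of complex V. Over all genes 18.7% were called lower. Their median log2 fold changes were -0.33, -0.80, -0.81 and -0.91. Grouped by role, 37 of the 40 ubiquitous subunit and cytochrome c genes fell, with a median of -0.84, while 8 of 13 assembly factor genes fell, with a median of -0.37. None of the 5 genes for tissue-restricted isoforms of complex IV passed the test. The medians of these 2 larger roles were closer with the trend on the longest transcript removed, as described below. Of the 40 genes 24 were then lower (median -0.31). Of the 13 assembly factor genes 6 were lower and 1 higher (median -0.18). All genes with a length gave 16.8% lower and 16.6% higher. With the trend on the median coding length removed, 35 and 7 were lower (medians -0.56 and -0.28), beside 19.2%. Whether the complexes or the roles differ from each other was not tested.

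**Figure D2:**
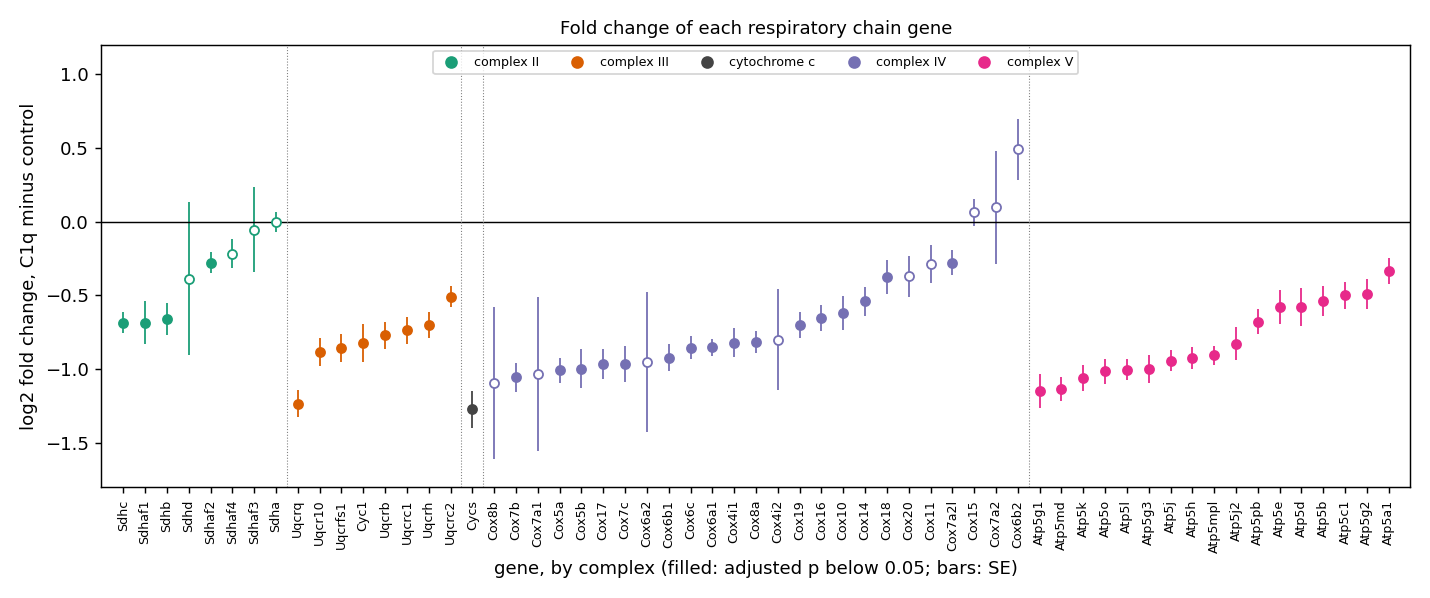
The vertical axis is the log2 fold change, C1q minus control, of each of the 59 genes with its standard error (bars), and colours give the complex. Filled points passed the test. Complexes III and V lie below 0 throughout, Sdha and Cox15 lie near 0, and Cox6b2 is the highest point at 0.49.

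Complex II was split. Sdha, which encodes the flavoprotein subunit where succinate is oxidised (Entrez gene 66945, chromosome 13, 74322255 to 74350240, GRCm38.p6 throughout), had normalised read counts of 5854, 5575 and 5888 in control 1, 2 and 3 and 5494, 6009 and 5785 in C1q 1, 2 and 3. The groups overlapped and their levels were close, the log2 change being -0.00 ± 0.07 (SE), adjusted p 0.978. Sdhb, the iron-sulfur subunit (Entrez gene 67680, chromosome 4, 140961271 to 140979198), stood at 1985, 2026 and 1586 in control 1, 2 and 3 and 1197, 1231 and 1097 in C1q 1, 2 and 3. All 3 controls lay above all 3 C1q libraries, and the gene fell 1.58-fold (log2 change -0.66 ± 0.11, adjusted p 0.00246). Sdhc, a membrane anchor, stood at 3301, 3553 and 3069 in control 1, 2 and 3 and 2013, 2101 and 2047 in C1q 1, 2 and 3. It fell 1.61-fold, again without overlap, with an adjusted p of 0.000472.

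The ratio of Sdhb to Sdha was 0.339, 0.363 and 0.269 in control 1, 2 and 3 and 0.218, 0.205 and 0.190 in C1q 1, 2 and 3, and that of Sdhc to Sdha 0.564, 0.637 and 0.521 against 0.366, 0.350 and 0.354. Both ratios were lower in every C1q library than in every control. These ratios were chosen after the values were seen, so they are a description. They are not corrected for the transcript length trend described below, and the longest transcript of Sdhb (1232 nt) is shorter than that of Sdha (2900 nt). Sdhd, the other membrane anchor, was counted at only 15.2, 7.72 and 4.25 in control 1, 2 and 3 and 7.75, 3.9 and 6.72 in C1q 1, 2 and 3, from 26, 10 and 1 reads in the controls and 11, 4 and 9 in the C1q libraries. At this depth no difference was detectable for Sdhd (adjusted p 0.594), and its level per kilobase of transcript, 7.34 in controls, was far under that of Sdhc at 4059. The reason for that low count was not tested.

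The complex II assembly factors differed among themselves. Sdhaf1, which guides iron-sulfur clusters into Sdhb, stood at 298, 310.4 and 221 in control 1, 2 and 3 and 168, 171 and 170.3 in C1q 1, 2 and 3, without overlap, and fell 1.61-fold (adjusted p 0.00879). Sdhaf2, needed to attach the flavin to Sdha, fell less, at a log2 change of -0.28 ± 0.07 (adjusted p 0.0174). This call was lost without C1q 2 (adjusted p 0.0513) or C1q 3 (0.0768). Sdhaf3 (-0.06 ± 0.29) and Sdhaf4 (-0.22 ± 0.10), which also serve the maturation of Sdhb and Sdha, did not pass the test.

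**Figure D3:**
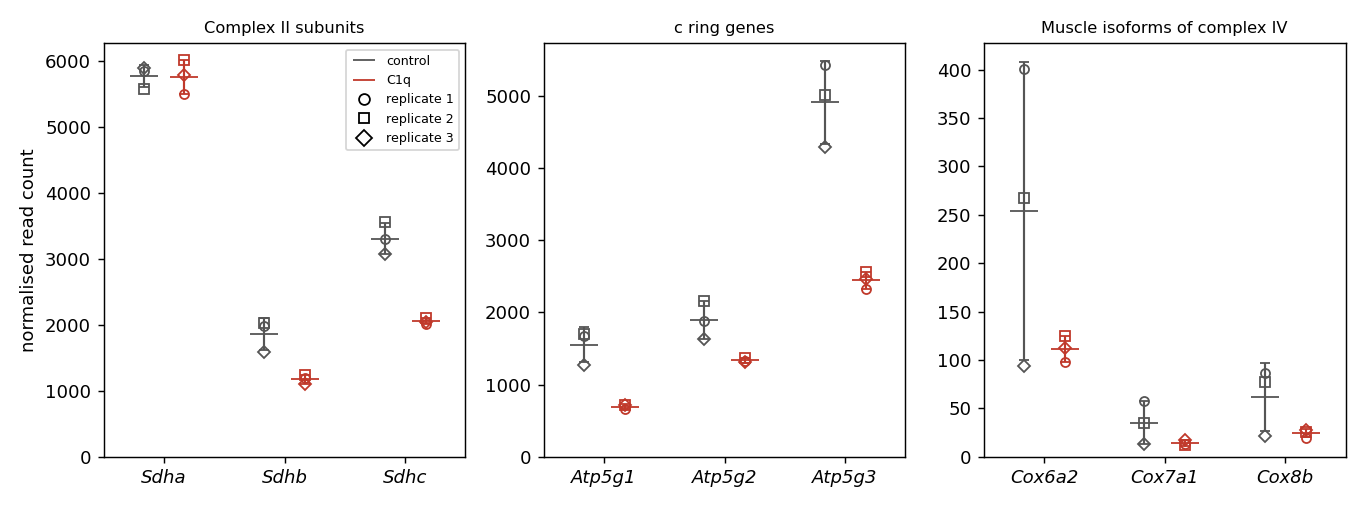
Normalised read counts (linear axes from 0) of complex II subunit genes, c ring genes and muscle isoforms of complex IV in each library, with symbols for the replicate, horizontal lines for group means and bars for SD (n = 3). Sdha overlaps between groups, Sdhb, Sdhc and the c ring genes do not, and control 3 lies within or next to the C1q range for Cox6a2, Cox7a1 and Cox8b.

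All 8 complex III genes fell, and no group overlapped. Uqcrq, a small subunit (Entrez gene 22272, chromosome 11, 53427922 to 53430831), stood at 2227, 2238 and 1896 in control 1, 2 and 3 and 957, 913 and 828 in C1q 1, 2 and 3. Its fall of 2.35-fold (log2 change -1.23 ± 0.09, adjusted p 0.000196) was the largest of the complex. Uqcr10, another small subunit, stood at 1416, 1500.3 and 1224 in control 1, 2 and 3 and 789.8, 752 and 692 in C1q 1, 2 and 3 and fell 1.85-fold. The smallest change was in Uqcrc2, one of the large core proteins, which stood at 2879, 2720.3 and 2542 in control 1, 2 and 3 and 1808, 1962 and 1951 in C1q 1, 2 and 3 and fell 1.42-fold (adjusted p 0.00142). The other core protein gene, Uqcrc1, stood at 4115, 4018 and 3299 in control 1, 2 and 3 and 2312, 2313 and 2205 in C1q 1, 2 and 3, a log2 change of -0.74 ± 0.09.

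The remaining genes of the complex, those of the electron carriers Cyc1 and Uqcrfs1 among them, moved the same way. Cyc1, which encodes cytochrome c1, stood at 2533, 2367 and 1773 in control 1, 2 and 3 and 1184, 1286 and 1255 in C1q 1, 2 and 3 and fell 1.77-fold (adjusted p 0.00228). The controls spread more for Cyc1 than for Uqcrc2, with control 3 the lowest, yet that library was still above every C1q library. Uqcrfs1, the Rieske iron-sulfur protein, Uqcrb and the hinge protein gene Uqcrh had log2 changes of -0.86, -0.77 and -0.70, all called lower.

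Cycs encodes cytochrome c, the soluble carrier between complexes III and IV, which also triggers apoptosis when it leaves the mitochondria (Entrez gene 13063, chromosome 6, 50562563 to 50566569). It stood at 1154, 1014 and 850.2 in control 1, 2 and 3 and 376, 445 and 418 in C1q 1, 2 and 3, the largest change of the 59 genes at -1.27 ± 0.12 (adjusted p 0.00039), or 2.42-fold lower. No library of one group reached the range of the other. The annotation holds 4 near-identical copies of Cycs, so its reads are uncertain. The ratio of Cycs to Cyc1 was 0.456, 0.428 and 0.480 in the controls and 0.318, 0.347 and 0.333 with C1q, another description chosen after the values were seen.

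In complex IV, 9 of the 10 ubiquitous subunit genes fell, with a median log2 change of -0.89. Cox4i1, one of the larger nuclear-encoded subunits, stood at 6989, 7716 and 6139 in control 1, 2 and 3 and 3763, 4229.8 and 3769.8 in C1q 1, 2 and 3 and fell 1.77-fold (adjusted p 0.000756). Cox7b, a small subunit (Entrez gene 66142, chromosome X, 106015700 to 106022450), stood at 2448, 2779 and 2134 in control 1, 2 and 3 and 1187, 1167 and 1165 in C1q 1, 2 and 3. It fell 2.08-fold, the largest called change of the complex, with an adjusted p of 0.000334. Cox5a, a subunit on the matrix side, stood at 1868, 1783 and 1547 in control 1, 2 and 3 and 857, 901 and 819.6 in C1q 1, 2 and 3 (log2 change -1.01 ± 0.09). The groups of these 3 genes did not overlap. Cox5b, Cox6a1, Cox6b1, Cox6c, Cox7c and Cox8a fell between 1.76-fold (Cox8a) and 2.00-fold (Cox5b).

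The exception was Cox7a2, which is the ubiquitous form of the subunit VIIa. It was counted at only 16.3, 20.1 and 8.5 in control 1, 2 and 3 and 12.7, 17.5 and 15.7 in C1q 1, 2 and 3, from 28, 26 and 2 and 18, 18 and 21 reads, and the groups overlapped (log2 change 0.10 ± 0.38, adjusted p 0.867). Its level per kilobase in controls was 22.7, against 7154 for Cox8a. Sdhd and Cox7a2 were the only 2 of the 59 genes with a mean value under 20. The reason for the low count was not tested.

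Cox7a2l, whose product joins complexes III and IV into a supercomplex, stood at 3409, 3916 and 3401 in control 1, 2 and 3 and 2875, 3164 and 2796 in C1q 1, 2 and 3. It fell 1.21-fold with an adjusted p of 0.0322, a smaller change than that of Cox5a, and the call was lost without control 2 (adjusted p 0.0695), C1q 1 (0.104) or C1q 3 (0.118). The ratio of Cox5a to Cox7a2l was 0.548, 0.455 and 0.455 in the controls and 0.298, 0.285 and 0.293 with C1q, as a description.

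Among the 5 tissue-restricted isoforms of complex IV, 0 were called by limma-trend (1 lower and 1 higher at an unadjusted p below 0.05) and 3 were lower by edgeR and by DESeq2. Cox6a2, the heart and muscle form of subunit VIa, stood at 400.3, 267 and 93.5 in control 1, 2 and 3 and 97.9, 125 and 112 in C1q 1, 2 and 3. Control 1 and control 2 were above every C1q library and control 3 was below them (log2 change -0.95 ± 0.47, adjusted p 0.153, and 0.0281 with edgeR). The muscle forms Cox7a1, at 57.1, 34.7 and 12.8 in control 1, 2 and 3 and 13.4, 11.7 and 17.2 in C1q 1, 2 and 3, and Cox8b, at 86.2, 77.2 and 21.3 in control 1, 2 and 3 and 19.7, 25.3 and 27.6 in C1q 1, 2 and 3, had the same pattern with control 3 inside the C1q range. Their log2 changes were -1.03 ± 0.52 and -1.09 ± 0.51, with adjusted p of 0.158 and 0.134 (edgeR 0.0221 and 0.0165). Without control 3 the adjusted p with limma-trend was 0.00132 for Cox6a2, 0.00704 for Cox7a1 and 0.00152 for Cox8b. The order of the controls is that of the summed muscle fibre markers given above, whose part in the result was not tested.

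Cox4i2, the oxygen-regulated form of subunit IV, stood at 64.7, 40.9 and 42.5 in control 1, 2 and 3 and 23.3, 20.5 and 42.6 in C1q 1, 2 and 3 and did not pass (-0.80 ± 0.34, adjusted p 0.103, and 0.0444 without C1q 3). Cox6b2, known as the testis form of subunit VIb, was the gene with the most positive change. It stood at 103, 115 and 80.8 in control 1, 2 and 3 and 169, 140.3 and 112 in C1q 1, 2 and 3, so that C1q 1 and C1q 2 were above every control and C1q 3 lay within the control range (0.49 ± 0.21, adjusted p 0.101). With the replicate number as a block its adjusted p was 0.0497, just past the threshold.

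Isoform shares were computed per kilobase of the longest transcript. Cox7a1 made up 82.6, 70.2 and 67.1% of Cox7a1 plus Cox7a2 in the controls and 58.9, 47.5 and 59.8% with C1q, without overlap (exact two-sided permutation p = 0.1, adjusted over 5 shares 0.25). With 3 against 3 libraries this test cannot go below 0.1, and the few reads of Cox7a2 limit the share. The shares of Cox4i2, Cox6a2 and Cox8b among their isoforms overlapped between groups, with exact permutation p of 1, 0.7 and 0.5 (adjusted 1, 0.875 and 0.833). Cox6a2 made up 8.35, 5.52 and 2.04% in the controls and 3.69, 4.90 and 4.32% with C1q, a wider span in the controls than with C1q.

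Assembly factors of complex IV fell at 6 of 9 genes. Those that deliver copper included Cox17, which fell 1.95-fold (log2 change -0.97 ± 0.10, adjusted p 0.000456), and Cox19 (-0.70), whereas Cox11 (-0.29 ± 0.13) did not pass. Heme A is made in successive steps by the products of Cox10 and Cox15. Cox10 fell 1.54-fold (adjusted p 0.00445), while Cox15 stood at 551, 617 and 506 in control 1, 2 and 3 and 564, 610.1 and 569 in C1q 1, 2 and 3, with overlapping groups and a log2 change of 0.06 ± 0.09 (adjusted p 0.633). Cox14 (-0.54), Cox16 (-0.65) and Cox18 (-0.37), which help to build in the mitochondrially encoded subunits, fell, and Cox20 (-0.37 ± 0.14, adjusted p 0.068) did not pass, but did with edgeR (0.0411). The call of Cox18 (adjusted p 0.037) held without control 3 and was lost without any 1 of the other 5 libraries, with adjusted p between 0.0785 and 0.138.

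In complex V all 17 genes fell, and every control was above every C1q library for each of them. The 5 genes of the catalytic F1 head had a median log2 change of -0.54. Atp5b, the beta subunit that makes ATP, stood at 20205, 18955 and 16435 in control 1, 2 and 3 and 12063, 13374 and 12766 in C1q 1, 2 and 3, the highest level per kilobase of the 59 genes in controls (9672). It fell 1.45-fold (log2 change -0.54 ± 0.10, adjusted p 0.00475). Atp5a1, the alpha subunit, stood at 15015, 13762 and 12889 in control 1, 2 and 3 and 10641, 11715 and 10642 in C1q 1, 2 and 3 and fell 1.26-fold (adjusted p 0.0198). Without control 1, C1q 1 or C1q 3 its adjusted p was 0.0558, 0.0787 and 0.0782. Atp5e, the epsilon subunit, stood at 1842, 2113 and 1624 in control 1, 2 and 3 and 1294, 1328 and 1097 in C1q 1, 2 and 3, with a log2 change of -0.58 ± 0.12. The gamma and delta subunit genes Atp5c1 and Atp5d changed by -0.50 and -0.58.

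The proton-driven ring is built from copies of the c subunit, which 3 genes encode with different import signals and the same mature protein. Atp5g1 (Entrez gene 11951, chromosome 11, 96072793 to 96075694) stood at 1672, 1707 and 1275 in control 1, 2 and 3 and 659, 711 and 710.5 in C1q 1, 2 and 3 and fell 2.22-fold (-1.15 ± 0.12, adjusted p 0.00045). Atp5g3 stood at 5431, 5021 and 4298 in control 1, 2 and 3 and 2324, 2559 and 2459 in C1q 1, 2 and 3 and fell 2.00-fold (adjusted p 0.000359). Atp5g2 stood at 1875, 2159.7 and 1637 in control 1, 2 and 3 and 1328, 1368 and 1306 in C1q 1, 2 and 3 and fell 1.41-fold (adjusted p 0.00721). The groups did not overlap for any of the 3. The ratio of Atp5g1 to Atp5g2 was 0.892, 0.790 and 0.779 in the controls and 0.497, 0.520 and 0.544 with C1q, as a description. The share of Atp5g1 among the 3, per kilobase, was 3.88, 4.00 and 3.64% in the controls and 3.04, 3.06 and 3.18% with C1q (exact two-sided permutation p = 0.1, adjusted 0.25). Without division by length it was 18.6, 19.2 and 17.7% against 15.3, 15.3 and 15.9%, the longest annotated transcripts of Atp5g1, Atp5g2 and Atp5g3 having 4715, 753 and 862 nt.

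The stalk and membrane subunits fell further than the F1 head in these libraries, a difference that was not tested. The 4 genes of the peripheral stalk, Atp5pb, Atp5h, Atp5j and Atp5o (the OSCP subunit), had a median log2 change of -0.93. The 5 small membrane subunits Atp5j2, Atp5k, Atp5l, Atp5md and Atp5mpl had a median of -1.004. Atp5md, which helps ATP synthase to form dimers, stood at 1296, 1288 and 1101 in control 1, 2 and 3 and 549, 568 and 557 in C1q 1, 2 and 3, without overlap, and fell 2.19-fold (adjusted p 0.000196). The annotation holds 9 near-identical copies of Atp5l (-1.004), so its reads are uncertain.

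Summed over each complex, normalised read counts with C1q were 81.9% of the control mean for complex II, 58.1% for complex III, 41.1% for Cycs, 58.6% for complex IV and 64.3% for complex V. Sums weight the most abundant genes most. For complex V they were 74095, 72133 and 62359 in control 1, 2 and 3 and 43403, 46759 and 43911 in C1q 1, 2 and 3, and for complex II 12886, 12888 and 12175 against 10145, 10721 and 10207. No complex overlapped between groups. All 59 genes made up 0.646, 0.650 and 0.551% of all normalised reads in the controls and 0.385, 0.393 and 0.390% with C1q.

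**Figure D4:**
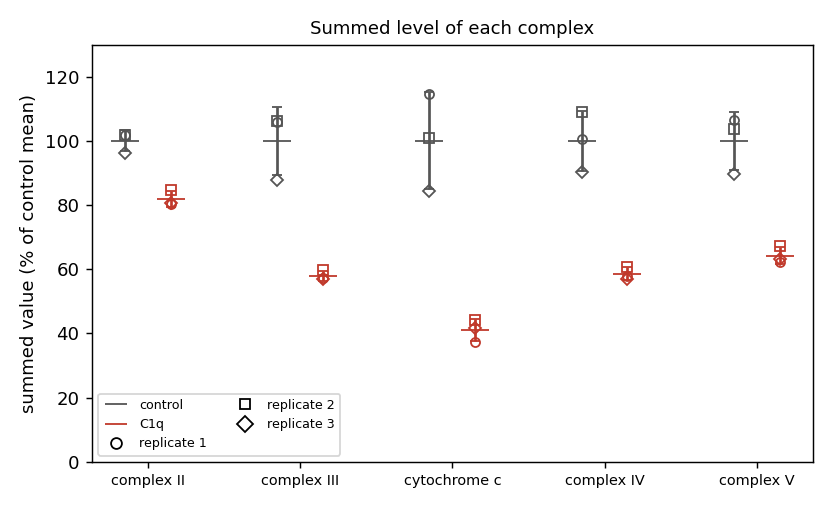
The vertical axis, from 0, is the summed normalised read count of each complex as a percent of the mean of the 3 controls, with symbols for the replicate, lines for group means and bars for SD (n = 3). C1q means lie at 81.9% for complex II and 58.1 to 64.3% for complexes III, IV and V, with control 3 the lowest control in each.

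Short genes as a whole were lower with C1q, and many respiratory genes are short. Among the 1496 genes whose longest transcript is shortest (62 to 1382 nt, 1 of 10 length classes), 42.9% were called lower and the median log2 change was -0.44. This class holds 32 of the respiratory genes, of which 22 fell, with a median of -0.84. Across all length classes 50 of the 59 lay below the median of their class. The shortest class is wide, so its median is a coarse measure of genes of like length. For genes with a mean of at least 20 it was -0.54. The running median of such genes was -0.69 near 739.5 nt, -0.62 near 894 nt and -0.35 near 1305 nt. Once a loess trend of expression on transcript length was removed in each library, 30 of the 59 were called lower and 2 higher, against 16.8% and 16.6% of all genes with a length. The median was then -0.28, and 0.03 for all genes.

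By complex, the counts called lower with that trend removed were 3 of 8 for II, 5 of 8 for III, 10 of 25 for IV and 11 of 17 for V, and Cycs was among those called. The longest transcript misstates some genes. For 9 of the 59 it is over 3 times the median coding transcript, as for Atp5l with 6310 against 544 nt. With the trend on the median coding length removed instead, an alternative chosen after seeing the data, 42 of the 59 were lower and 1 higher, against 19.2% and 18.5%, with a median of -0.54. The counts were then 4, 8, 14 and 15 for complexes II to V. Of the 35 respiratory genes in the shortest class by this length (189 to 786 nt) 27 fell before correction, against 37.6% of all genes there, and 55 of the 59 lay below the median of their class. All 30 genes were also lower in the other 2 fits.

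Single genes moved differently under the length corrections. Cycs and Uqcrq stayed at -1.23 and -0.91 with the longest transcript and -1.39 and -0.93 with the median coding length. Cox8a, at -0.81 uncorrected, was at -0.06 (adjusted p 0.482) and -0.52 (0.00112). Sdha stood at 0.07 and 0.07. Its partner Sdhb was no longer called with the longest transcript (-0.24, adjusted p 0.068) but was with the median coding length (-0.46, 0.00793). Sdhc was called lower with both (-0.65 and -0.43). Sdhaf4 was called higher with the longest transcript (0.45, adjusted p 0.0169) but not with the median coding length (0.06, 0.695), and Cox6b2 was higher with both (1.22 and 0.81). Atp5g2 turned from -0.49 to 0.13 and to -0.22, neither of which passed the test. Whether transcript length or a property that goes with it underlies the trend was not tested.

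**Figure D5:**
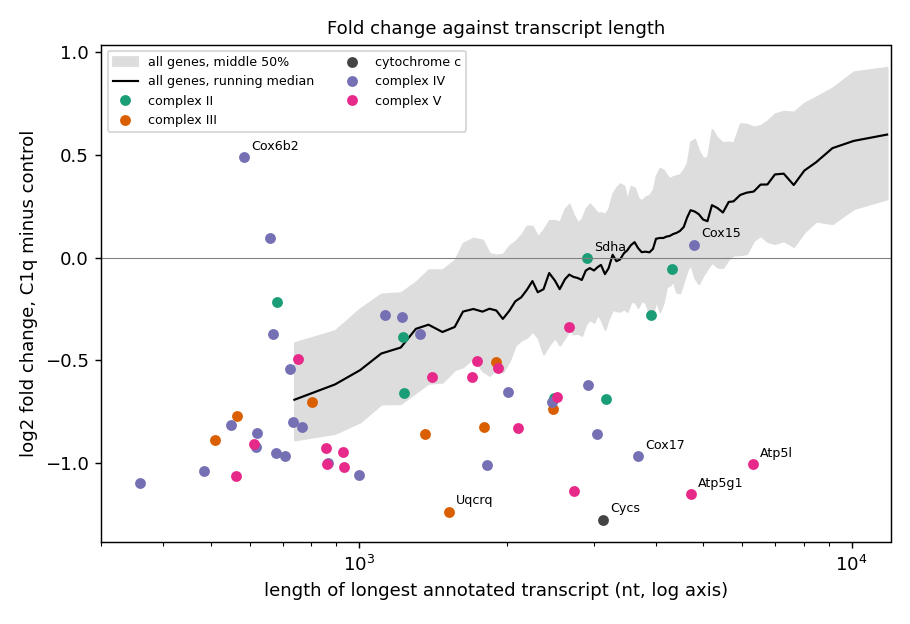
The horizontal axis is the length of the longest annotated transcript (nt, log scale) and the vertical axis the log2 fold change, C1q minus control. The line and band give the running median and middle 50% of all genes, and coloured points are the 59 genes. Most points lie below the line, with Cycs, Atp5g1, Atp5l and Cox17 far below it and Cox6b2 above it.

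Reads of some genes cannot be assigned with certainty. An annotated gene on the opposite strand overlaps 20 of the 59 genes, such as Gabpa with Atp5j and Emc8 with Cox4i1. Whether the counting used strand is not known. Apart from strand, 3 genes (Cox16, Cox17 and Atp5g2) overlap a gene on the same strand. A near-identical annotated copy exists for 16, among them Cycs, Atp5l, Cox7b and Atp5g1. Of the 27 genes with neither such a copy nor any overlap, 19 fell, beside 46 of all 59 and 18.7% of all genes.

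The subunits that mitochondrial DNA contributes to the same complexes were lower as well. All 6 (CYTB of complex III, COX1, COX2 and COX3 of complex IV, ATP6 and ATP8 of complex V) fell, with log2 changes between -1.82 (COX3) and -1.16 (COX1), and 5 did with the trend on the longest transcript removed, ATP8 being the exception. Over all genes 18.7% were called lower, and 16.8% with that trend removed. COX1 stood at 486670.2, 420820.5 and 382194 in control 1, 2 and 3 and 173016, 219249 and 186096 in C1q 1, 2 and 3. COX2 stood at 4969.8, 4634 and 7048 in control 1, 2 and 3 and 1647, 2038 and 1818 in C1q 1, 2 and 3, so control 3, the lowest control for most of the nuclear genes, was the highest for COX2. The same held for COX3, ATP6 and ATP8.

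Complex I, which feeds the chain beside complex II, was lower at 35 of 36 measured nuclear subunit genes, beside 18.7% of all genes. The median log2 change was -0.70. With the trend on the longest transcript removed 18 were lower and 1 higher, beside 16.8% and 16.6%. Ndufv2 stood at 1936, 2078 and 1998 in control 1, 2 and 3 and 1160.5, 1136 and 1134 in C1q 1, 2 and 3 (adjusted p 0.000196). Ndufa11, Ndufa1 and Ndufa2 fell 1.90-fold, 2.01-fold and 1.84-fold. A list of 29 measured genes that the naming rule does not take in holds mostly assembly factors of complexes III, IV and V, and also Ndufa4, its relative Ndufa4l2 and the ATPase inhibitor gene Atpif1. Of these 13 were lower and 0 higher, beside 18.7% and 19.7% of all genes. With the trend on the longest transcript removed 5 were lower and 4 higher, shares near those of all genes (16.8% and 16.6%). Uqcc2, needed to build complex III, fell from 1999.8, 1895 and 1802 to 869, 838 and 877 (log2 change -1.14). Higd1a, Coa7 and the complex IV subunit gene Ndufa4 fell 2.00-fold, 1.87-fold and 1.66-fold. These 4 genes and Lrpprc were the 5 still lower with that trend removed, and the 4 then called higher were Surf1 (0.57), Taco1 (0.53), Higd2a (0.37) and Coa3 (0.24), of which Higd2a (-0.32) and Coa3 (-0.32) were called lower before it.

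A list of carrier genes fell at 3 of 6 genes, beside 18.7% of all genes. It holds carriers that supply complex V with ADP and phosphate, and also Ucp2, which is not one of these. Slc25a5 and Slc25a4, the adenine nucleotide translocators, and Slc25a3, the phosphate carrier, changed by -1.12, -0.64 and -0.45, and Ucp2 (-0.34, adjusted p 0.102) did not pass. Genes taken as measures of mitochondrial mass and the outer membrane were lower at 10 of 15 and higher at 2 (10 and 0 with the length trend removed). Over all genes 18.7% were lower and 19.7% higher (16.8% and 16.6% with that trend removed). The porin genes Vdac2 and Vdac3, the import channel gene Tomm40 and the prohibitin gene Phb2 changed by -0.83, -0.68, -0.94 and -0.78.

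Of 16 known transcriptional regulators of respiratory genes 2 were lower and 3 higher, shares near those of all genes (18.7% and 19.7%). With the trend on the longest transcript removed 2 were lower and 2 higher, beside 16.8% and 16.6%, and edgeR called 4 lower and 3 higher, beside 25.1% and 23.4%. Gabpa, which encodes the DNA-binding part of GABP, stood at 1079.7, 1050.1 and 1156 in control 1, 2 and 3 and 1500.1, 1656 and 1597 in C1q 1, 2 and 3, without overlap (log2 change 0.53, adjusted p 0.00111), and overlaps Atp5j on the opposite strand. Sp1 and Yy1 changed by 0.68 and 0.25 (adjusted p 0.000561 and 0.0267), and with the trend on the longest transcript removed by 0.27 and -0.06, the latter not called. Ppard and Esrra were the 2 called lower (-0.25 and -0.29). Nrf1 (-0.08, adjusted p 0.468) and Ppargc1a, the coactivator PGC-1 alpha (-0.29, adjusted p 0.397), did not pass.

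Muscle-lineage markers moved with the controls, so the controls were also read one by one. Of the 9 muscle fibre markers 3 were lower (Mylpf, Tnnt3 and Ckm) and 2 higher (Myh2 and Myh7) with C1q, and edgeR called 6 lower and 2 higher. Over all genes limma-trend called 18.7% lower and 19.7% higher, and edgeR 25.1% and 23.4%. Of the 6 satellite cell and myoblast markers 4 were lower (Myf5, Myod1, Myog and Cdh15), and Pax7 stood at 7.58, 2.32 and 0.0 in the controls and 3.52, 1.95 and 1.49 with C1q. Of the other cell types looked at, 0 of 4 endothelial and 0 of 4 macrophage markers were called by limma-trend, also at an unadjusted p below 0.05. DESeq2 called 0 of them, and edgeR 0 of the 3 and 2 that it tested. The 4 macrophage markers were low, so a change in them could be missed. They summed to 124, 98.1 and 97.8 in control 1, 2 and 3 and 53.5, 126 and 50.1 in C1q 1, 2 and 3. Of 4 pericyte and smooth muscle markers 1 (Kcnj8) was higher by limma-trend, and 2 at an unadjusted p below 0.05. DESeq2 called 2 of these 4 higher, and edgeR 2 of the 3 that it tested. Control 3 had a muscle fibre marker sum of 19470, near the top of the C1q range (12463 to 19620). Its satellite cell and myoblast sum of 5463 was above every C1q library (3821, 5105 and 4717). The part of muscle-lineage RNA in the respiratory result was not tested. Taken alone, control 3 was above every C1q library for 48 of the 59 respiratory genes, against 38.4% of all genes. Its median log2 difference to the C1q mean was 0.54. Control 1 and control 2 were above for 55 each, against 39.9% and 40.1%, with medians of 0.84 and 0.87.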

How the data were processed

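RNA sequencing libraries of FAPs given vehicle or C1q (3 each) were grouped by the treatment in the labels. Reads were handled with Trimmomatic, HISAT2, featureCounts and DESeq2 on build mm10, per the submitters' processing notes. For their versions, the gene annotation and the use of strand, nothing is stated in the sources used here. The deposited table holds a normalised signal per Entrez gene, read counts divided by the authors by 1 factor per library: 100% of the values are whole numbers of reads to within 0.001. The lowest gene mean is 1.00. The planned test for such values was kept as the main one.

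The test was limma-trend (limma 3.58.1, R 4.3.3) on log2(value + 1), for genes whose mean reached 1, with Benjamini-Hochberg adjustment over all 16671 genes and a threshold of 0.05. Fold changes on this scale understate those of low genes. Alternatives were edgeR 4.0.16 and DESeq2 1.42.0 on recovered reads, other pseudocounts, filters and scalings, thinning to equal depth, the replicate block, leaving out each library, and loess trends (span 0.5, fitted to genes whose mean reached 20) on transcript length or GC content. The scripts were tested on simulated data.

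Symbols and coordinates came from RefSeq (GRCm38.p6; 16077 of 16671 IDs), lengths from GENCODE vM21 (14934 genes; 14655 with a coding transcript). A near-identical copy shares at least 200 bases at 95% identity. Replicates of 1 group differed by more than sampling noise (chi-square per degree of freedom 17.6 to 42.9). Same-numbered libraries deviated together from their group means (correlations 0.123, 0.175 and 0.132, all over 0.1). The replicate block therefore pairs them by number, from the data and not from the labels. The main fit held treatment only, so its p-values do not use this pairing.

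The respiratory genes and the lists were chosen with earlier results of these data known. Values in all libraries are given for the 2 most negative and the least negative log2 changes of each complex (mean of at least 20), for 17 genes listed by name, for genes that run against their complex, and up to 4 genes per list by lowest p are named. Beyond this rule, the values of Sdhb, Sdhd, COX1, COX2 and Pax7, the mention of Nrf1, Ppargc1a, Esrra, Myh7, Lrpprc, Surf1, Taco1, Higd2a and Coa3, the ratios, the promoters and their letter strings were chosen after values were seen.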

Additional observations from a re-analysis of the deposited data

How the results depend on the processing

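The 46 genes called lower ranged from 43 to 50 when 1 library was left out, and the median of -0.77 from -0.84 to -0.68. The counts ranged from 3 to 4 for complex II, stayed at 8 for complex III, and ranged from 14 to 20 for complex IV and from 16 to 17 for complex V, and no gene was called higher. The 30 genes called lower with the length trend removed ranged from 23 to 37, with 37 without control 3. With the replicate block 46 genes were lower and 1 (Cox6b2) higher, and the block changed no other call of the 59. edgeR with TMM called 50, DESeq2 48 and thinning to equal depth 44. Removal of the trend on the longest transcript gave 30 lower and 2 higher with a median of -0.28, and with the block also 2 higher, 5 for complex III, 10 for complex IV and a median of -0.28. Without the block the counts were 5 for complex III, 10 for complex IV and 11 for complex V. The trend on the median coding length, chosen after seeing the data, gave 1 higher and a median of -0.54. The causes were not tested.

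With the longest-transcript trend removed, with or without the block, 10 genes changed sign. Of these, Sdhaf4 (0.45), Cox14 (0.10), Cox18 (0.011), Cox7a2l (0.18) and Atp5g2 (0.13) passed the test before or after the correction, and Sdha, Sdhd, Cox11, Cox15 and Cox20 passed in neither. The Cox4i2 share difference of 0.0279 percentage points reversed without control 2 (-0.0676) and without C1q 3 (-0.170), and ranged from -0.170 to 0.161. That of Cox6a2 (-0.997) reversed without control 1 (0.526) and ranged from -2.63 to 0.526. The ranges were -0.846 to -0.667 for Atp5g1 (-3.00 when not divided by length), -21.0 to -13.2 for Cox7a1 and -1.42 to -0.145 for Cox8b. Depth limits Sdhd, Cox7a2 and the low values of control 3.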
